A study of Homo sapiens with 6 samples.

Results

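The genes described here are 58 nucleolar ribosome biogenesis factors, of 21475 genes with a value in every library. They were chosen by gene symbol as nucleolar proteins that build ribosomes, with the contrast between *FGFR2* KO and WT cells already in view, and their values in that contrast are therefore given as a description without a test. All 58 symbols were found. By role they comprise 3 core proteins of the box C/D small nucleolar ribonucleoproteins (snoRNPs), 4 of the box H/ACA snoRNPs, 27 small-subunit factors, 19 large-subunit factors, and 5 general nucleolar proteins, namely 4 phosphoproteins and the RNA helicase DDX21.

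RNA was measured by poly(A)-selected, stranded RNA sequencing in HaCaT cells, a spontaneously immortalized line of human keratinocytes. The design set 3 lines with intact *FGFR2* (WT) against 3 lines in which *FGFR2*, a receptor tyrosine kinase for fibroblast growth factors, was knocked out with CRISPR/Cas9 (*FGFR2* KO), to ask which genes differ in the absence of this receptor. All cells grew in serum-containing medium, the protocols name no further treatment, and each of the 6 libraries came from 1 line. Each KO line was expanded from a single cell, whereas the WT lines of the study were the starting population and clones of it. In one place the sequenced lines are described as clonally expanded, and the libraries were not matched to these lines here. The p-values below therefore measure the spread between 3 lines of each genotype, and in bulk RNA a larger share of cells that express a gene cannot be told apart from more of its RNA per cell.

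Eukaryotic ribosomes are assembled in the nucleolus, where a long precursor RNA is transcribed, chemically modified, cut and folded onto ribosomal proteins. Box C/D snoRNPs guide methylation of the ribose and box H/ACA snoRNPs guide pseudouridylation of that precursor. The small-subunit processome, organised around the U3 snoRNP, forms on its front part, while a separate series of large-subunit factors matures the remainder. In skin as in other tissues these genes are active in growing cells, and MYC is a known activator of many of them through the E-box motif CACGTG.

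The sequences below show what the box C/D and H/ACA proteins bind, and come from snoRNA genes that lie in introns of these same protein genes. Of the 58 genes, 8 (13.8%) held 27 annotated snoRNA genes in their introns, namely *NOP56*, *NOP58*, *DKC1*, *GNL3*, *NCL*, *PPAN*, *TSR1* and *WDR43*. Among all 12124 tested protein-coding genes, 195 (1.61%) held a snoRNA gene within their bounds on the same strand, whether in an intron or not. In *GNL3* the annotations at 52688882 to 52688961 and at 52688890 to 52688962 overlap each other and are both counted. The mature snoRNAs themselves were not analysed here. Capitals mark the box C core TGATGA and the box D CTGA in the box C/D snoRNAs, and the box H (ANANNA, the match nearest the middle) and the ACA before the 3′ end in the box H/ACA snoRNA. SNORD110 (chr20:2654212-2654286, plus strand) and SNORD57 (chr20:2656939-2657010, plus strand) lie in *NOP56*, SNORD11 (chr2:202293051-202293134, plus strand) in *NOP58*, and SNORA36A (chrX:154768528-154768659, plus strand) in *DKC1*, all on GRCh38 with GENCODE 44 transcripts.
SNORD110: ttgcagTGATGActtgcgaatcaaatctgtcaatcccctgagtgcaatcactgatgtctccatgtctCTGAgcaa
SNORD57: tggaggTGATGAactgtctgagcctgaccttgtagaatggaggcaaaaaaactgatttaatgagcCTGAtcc
SNORD11: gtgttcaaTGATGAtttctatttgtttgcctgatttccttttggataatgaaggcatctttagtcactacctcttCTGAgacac
SNORA36A: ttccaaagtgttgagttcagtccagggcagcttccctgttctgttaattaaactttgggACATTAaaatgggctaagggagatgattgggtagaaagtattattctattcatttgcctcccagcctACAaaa

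A second sequence feature of these genes is the E-box in their promoters. Since the genes were chosen with the contrast in view, its shares are likewise a description of the set. RefSeq promoter windows (GRCh38.p14, 250 bases before to 50 bases after the start) were found for 48 of the 58 genes, and 20 of these (41.7%) held CACGTG, a palindrome that reads alike on both strands. The motif was present in 991 of 9809 windows of tested genes (10.1%), in 2030 of all 27305 windows (7.43%), and in 22 of 76 windows of other ribosome biogenesis factors (28.9%). By role it was found in 13 of 24 small-subunit genes (54.2%), 5 of 14 large-subunit genes (35.7%), 1 of 4 box H/ACA genes, 1 of 2 box C/D genes and none of 4 general nucleolar genes. The 30-base windows below, with the motif in capitals, are those of the 5 small-subunit genes with the largest differences between the genotypes, of the box C/D methyltransferase gene *FBL*, and of *NOP2* and *PES1* of the large-subunit set. They lie at chr3:51941892-51941921 (*RRP9*, minus strand), chr9:33473894-33473923 (*NOL6*, minus), chr6:41921515-41921544 (*BYSL*, plus), chr2:28894658-28894687 (*WDR43*, plus), chr17:51260538-51260567 (*UTP18*, plus), chr19:39846356-39846385 (*FBL*, minus), chr12:6568242-6568271 (*NOP2*, minus) and chr22:30591880-30591909 (*PES1*, minus).
RRP9: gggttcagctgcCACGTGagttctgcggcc
NOL6: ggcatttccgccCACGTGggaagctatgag
BYSL: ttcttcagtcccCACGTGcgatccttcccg
WDR43: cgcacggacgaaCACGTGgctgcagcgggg
UTP18: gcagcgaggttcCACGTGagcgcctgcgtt
FBL: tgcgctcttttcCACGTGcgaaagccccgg
NOP2: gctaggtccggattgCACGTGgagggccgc
PES1: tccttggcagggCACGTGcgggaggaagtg

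The 20 promoters held 23 copies of the motif, of which 18 began within 50 bases of the start and 5 lay further upstream. *IMP4*, *NOP10* and *UTP18* had more than 1 copy. The log2 fold change (KO minus WT) had a median of 0.76 over the 20 genes with the motif and of 0.72 over the 28 genes whose window lacked it. All of these genes were chosen with the contrast in view and were higher in KO. The medians therefore cannot show whether the motif goes with the difference. The largest log2 fold change was 1.11 among the genes with the motif and 1.43 among those without it. *NOP56*, *RRP1* and *DKC1* (1.43, 1.10 and 1.08) had windows that lacked the motif, so the windows shown do not stand for all genes of large difference. *BOP1*, *URB2* and *RRS1*, which had some of the largest differences of the set, had no promoter window. A match of letters does not show that a factor binds there.

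**Figure D1:**
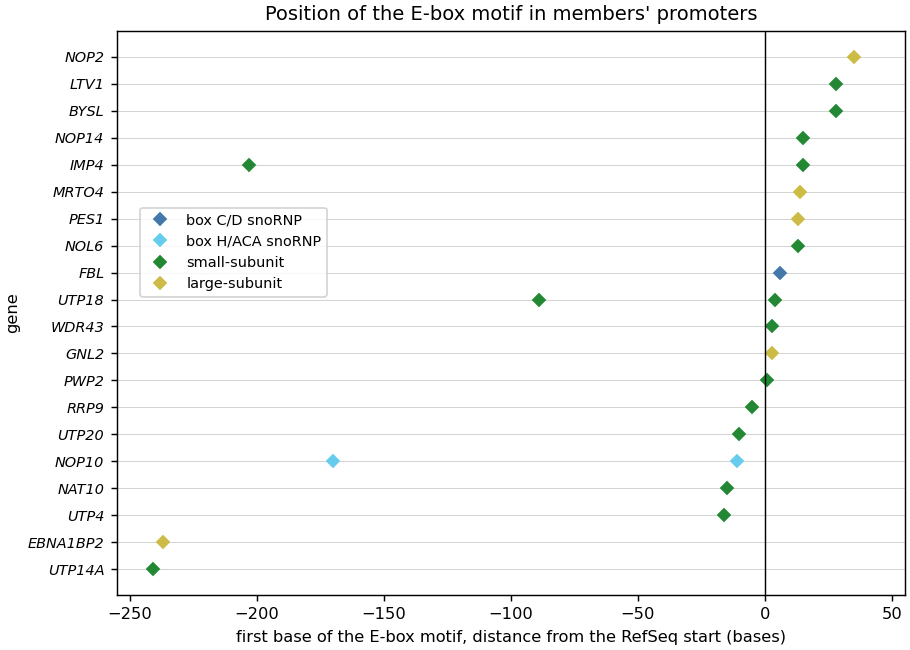
Position of each CACGTG motif in the promoters of the 20 genes that held it; the horizontal axis gives the distance of its first base from the RefSeq start in bases, each row is a gene and each diamond is a motif, coloured by role. Of the 23 motifs, 18 lie within 50 bases of the start.

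The libraries were checked before the genes were compared. *FGFR2* stood at 21.6, 39.7 and 15.0 FPKM (fragments per kilobase of transcript, scaled to the total of the library) in WT 1 to WT 3 and at 3.04, 2.26 and 4.31 FPKM in KO 1 to KO 3. The KO mean was 12.6% of the WT mean, and the difference reached the smallest p that 3 against 3 lines allow (two-sided exact permutation test, p = 0.1). Across all genes its log2 fold change of -2.73 (SE 0.36) had an adjusted p of 0.261 in limma's test. All 10 keratinocyte markers were expressed, whereas a mean of at least 0.5 FPKM was reached by 2 of 7 markers of fibroblasts, 2 of 6 of melanocytes, 2 of 6 of hematopoietic cells and 2 of 4 of endothelial cells, with *SOX10* and *KDR* at 0. The steps between low values gave an estimated depth of 67800000 to 87700000 fragments per library. The share of all FPKM taken by mitochondrial transcripts was 21.5 to 27.6% in WT and 15.8, 23.7 and 11.9% in KO 1 to KO 3.

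All 58 genes had a higher mean log2 level in KO than in WT, where 60.6% of the 12241 tested genes did. The levels are log2(FPKM + 0.5), a scale that understates the difference of the lowest genes. The median log2 fold change over the 58 genes was 0.74, with a range from 0.16 for *BMS1* to 1.63 for *BOP1*, against a median of 0.09 over all tested genes. In 50 genes (86.2%) all KO lines lay above all WT lines, where 18.3% of all tested genes showed this. In none of the 58 did they all lie below, where 706 of the 12241 tested genes showed that. A log2 fold change of 0.5 or more was seen in 50 genes (13.3% of all tested genes) and of 1 or more in 14 genes (1.98%). Since this contrast was in view when the genes were chosen, these shares describe the set and nothing is read from their distance to the background.

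No gene of the 12241 passed limma's test at an adjusted p of 0.05 together with a log2 fold change of 0.5 or more in either direction (0% called), the 58 genes included. At an unadjusted p of 0.05 and the same fold change, 1251 genes were higher in KO (10.2%) and 285 lower, among them 49 of the 58 higher and none lower. Scaling by median of ratios made this split 817 against 488 and quantile normalization 803 against 502, and the count of higher genes was 539 without KO 3 and 767 without WT 1. With libraries weighted by their spread, 1396 genes passed at the adjusted p, of which 1160 were higher in KO (9.48% of all tested genes), 42 of the 58 included. In that fit WT 1 carried a weight of 10.26 against 0.36 for WT 2 and 0.82 for WT 3, so the WT level rested mostly on WT 1.

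The height of the difference varied from line to line. Set against the mean of the WT lines on the log2 scale, the 58 genes had a median of -0.04, -0.08 and 0.13 in WT 1 to WT 3 and 0.55, 0.46 and 1.18 in KO 1 to KO 3. KO 3 was thus the line with the largest difference, and it held the highest value of all 6 libraries for each of the 58 genes (38.7% of all tested genes). KO 1 exceeded KO 2 in 43 of the 58 genes (55.4% of all tested genes), and WT 3 exceeded the other WT lines in 44 (39.7%). The lowest value fell in WT 2 for 33 genes, in WT 1 for 21, in WT 3 for 3 and in KO 1 for *BMS1* alone. When KO 3 was left out, the median log2 fold change was 0.52 (0.07 over all tested genes), and the log2 fold change of 21 genes was smaller by more than 1.5 times. The count of 50 genes without overlap (19.7% of all tested genes in this setting) could not differ then, since KO 3 was the lowest KO line in none of the 58 genes.

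Genes of DNA replication followed the same order of lines. The summed FPKM of *MCM2* to *MCM7*, the subunits of the replicative helicase, was 434.5, 290.7 and 515 in WT 1 to WT 3 and 753, 669.7 and 1191 in KO 1 to KO 3, with a median log2 fold change of 1.03 over the 6 genes. Against the WT lines, their median log2 difference was largest in KO 3 at 1.47 and lowest in WT 2 at -0.44. KO 3, where the 58 genes were highest, also had the lowest mitochondrial share. With each library scaled to its sum without mitochondrial transcripts (nuclear sum scaling), the 58 genes had a median log2 fold change of 0.66. All 58 were higher in KO in that setting, and the median over all tested genes was 0.01. The part of either measure in the result was not tested beyond this.

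**Figure D2:**
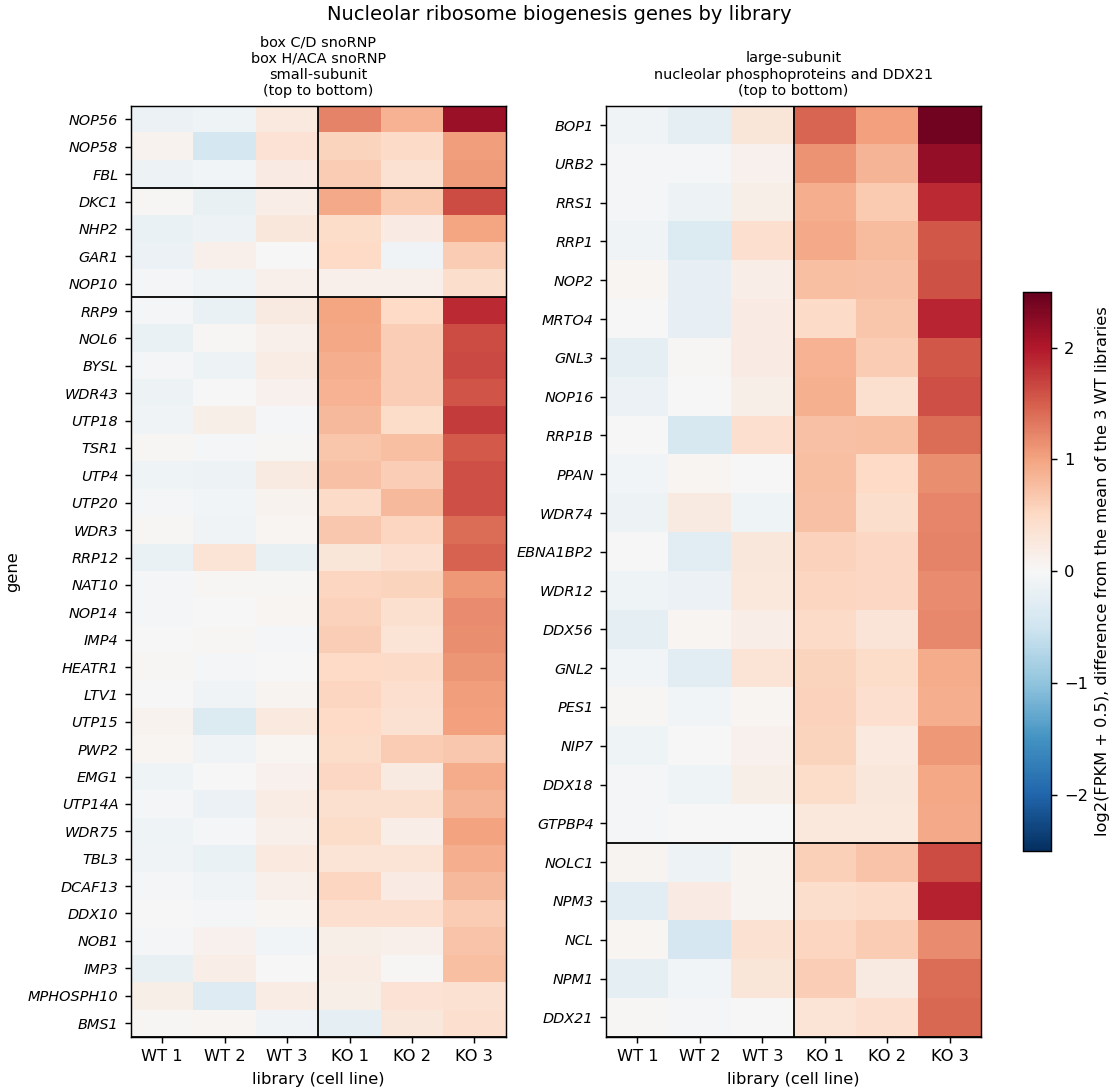
Each of the 58 genes (rows, grouped by role and ordered by log2 fold change) in each of the 6 libraries (columns); colour gives log2(FPKM + 0.5) as the difference from the mean of the 3 WT libraries. The KO columns are red for nearly all genes and darkest in KO 3, whereas the WT columns stay near 0.

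**Figure D3:**
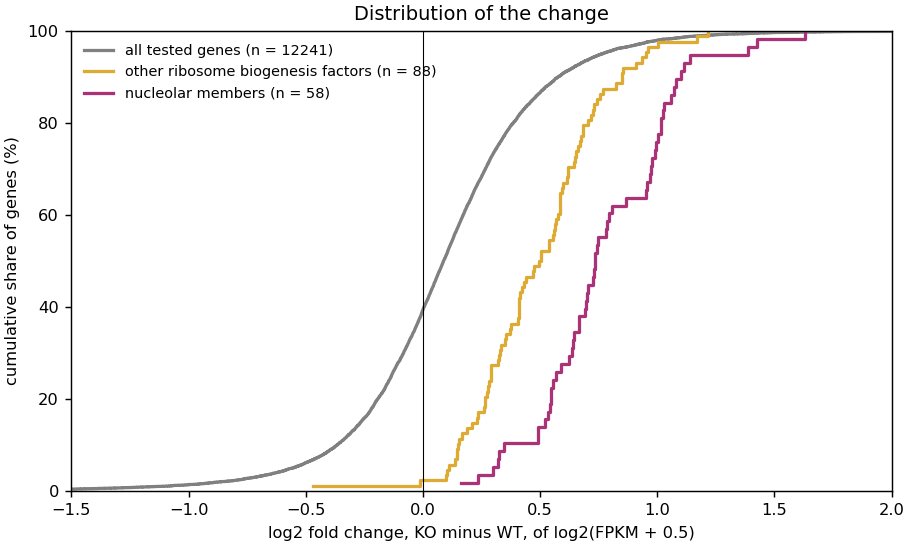
Cumulative share of genes (vertical axis, %) by log2 fold change, KO minus WT (horizontal axis), for all 12241 tested genes, for 88 other ribosome biogenesis factors and for the 58 nucleolar genes. The medians are 0.09, 0.50 and 0.74, and the line of the 58 genes lies wholly to the right of 0.

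The box C/D snoRNPs share the proteins NOP56, NOP58 and fibrillarin (FBL) around each guide RNA. *NOP56* (chromosome 20, 2652593 to 2658393, plus strand), a scaffold subunit, was at 56.6, 58.2 and 73.9 FPKM in the WT lines and at 149, 115 and 279.9 FPKM in the KO lines. Every KO line exceeded every WT line, and the means of 62.9 ± 9.56 and 181 ± 87.2 FPKM (SD, n = 3 each) differed 2.88-fold. Its log2 fold change was 1.43 (SE 0.31), the second highest of the set after *BOP1*, and it was 1.06 without KO 3.

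*NOP58*, its paralogue in the complex, stood at 80.0, 55.1 and 96.2 FPKM in WT and 111.5, 105 and 156 FPKM in KO, with a log2 fold change of 0.70 (SE 0.24). *FBL*, the methyltransferase, stood at 71.6, 74.2 and 90.1 FPKM in WT and 122, 101 and 165 FPKM in KO, with a log2 fold change of 0.69 (SE 0.20). Neither gene overlapped between the genotypes.

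The proteins of this complex differed in how far they moved apart between genotypes. The ratio of *NOP56* to *NOP58*, taken within each library and thus free of scaling between libraries, was 0.708, 1.06 and 0.768 in WT and 1.34, 1.09 and 1.79 in KO. The ratio of *NOP56* to *FBL* was 0.791, 0.785 and 0.820 in WT and 1.23, 1.13 and 1.70 in KO. Both ratios were higher in each KO line than in any WT line, although for *NOP56* to *NOP58* KO 2 and WT 2 lay close together.

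In the box H/ACA snoRNPs, dyskerin (DKC1) is the pseudouridine synthase and NHP2, NOP10 and GAR1 are its partners. *DKC1* (chromosome X, 154762742 to 154777689, plus strand) was at 59.0, 50.8 and 64.9 FPKM in WT and at 113, 91.3 and 181 FPKM in KO. The groups did not overlap, and the means of 58.2 ± 7.06 and 128 ± 46.7 FPKM (SD, n = 3 each) gave a ratio of 2.20 and a log2 fold change of 1.08 (SE 0.25).

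The 3 partners of dyskerin each overlapped between the genotypes. *NHP2* had 53.2, 54.7 and 72.0 FPKM in WT and 81.8, 68.2 and 118 FPKM in KO (log2 fold change 0.55, SE 0.23), with KO 2 below WT 3. *GAR1*, the least abundant, had 9.20, 11.2 and 10.3 FPKM in WT and 14.5, 9.55 and 16.1 FPKM in KO (0.35, SE 0.21), and KO 2 lay below WT 2 and WT 3. *NOP10* had 118, 113 and 132 FPKM in WT and 131, 132 and 165 FPKM in KO (0.23, SE 0.15), so that only KO 3 stood clearly apart. Without KO 3 the log2 fold changes of *NHP2*, *GAR1* and *NOP10* were 0.33, 0.20 and 0.13. *NHP2* shares 66.3% of the 31-base words of its main transcript with other gene models, counted on either strand, which makes its level uncertain.

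Within single libraries *DKC1* was therefore higher relative to each partner in KO. The ratio of *DKC1* to *NOP10* was 0.5, 0.450 and 0.493 in WT and 0.858, 0.690 and 1.10 in KO. Its ratio to *NHP2* ranged from 0.901 to 1.11 in WT and from 1.34 to 1.54 in KO, and its ratio to *GAR1* from 4.56 to 6.41 and from 7.76 to 11.3. None of these 3 ratios overlapped between the genotypes. Here, as for *NOP56* and *BOP1*, the gene with the largest difference of its complex was set on top. Higher ratios in KO follow in part from that choice, and the share of all gene pairs that separate in this way was not computed. For the 7 snoRNP proteins together the median log2 fold change was 0.69, with 0.70 in the box C/D and 0.45 in the box H/ACA complex.

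**Figure D4:**
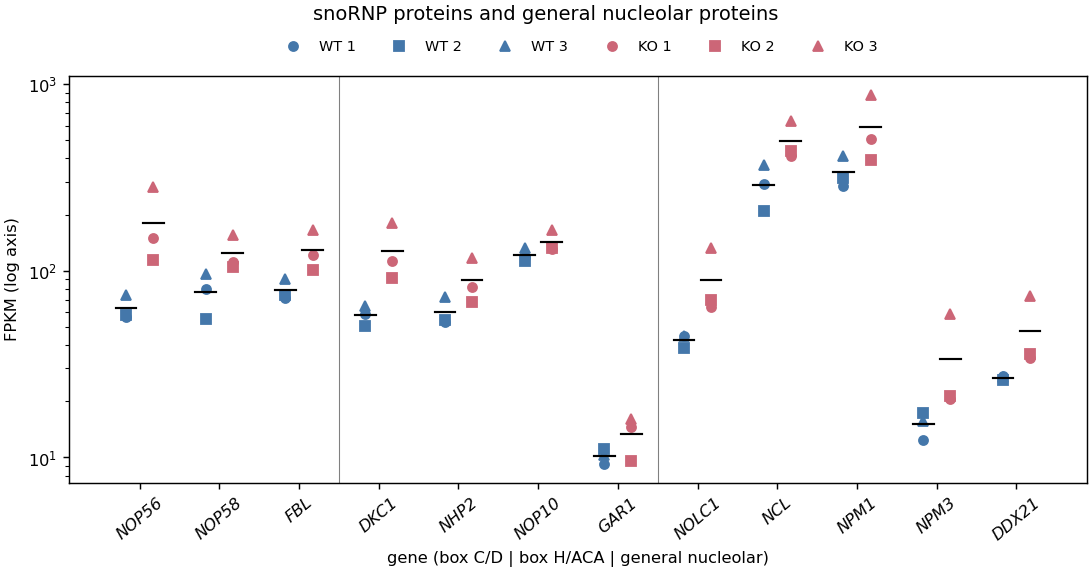
FPKM (vertical log axis) of the 7 snoRNP protein genes and the 5 general nucleolar genes in each WT line (blue) and KO line (red), with a bar at the mean of 3 lines. *NOP56* and *DKC1* separate by genotype, whereas *NOP10* and *GAR1* overlap.

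The 27 small-subunit genes had a median log2 fold change of 0.70, from 0.16 to 1.11, and all KO lines lay above all WT lines in 23 of them (18.3% of all tested genes). *BMS1*, *IMP3*, *MPHOSPH10* and *RRP12* overlapped between the genotypes. Without KO 3 the median was 0.48. The values that were smaller by more than 1.5 times in that setting were 0.74 for *RRP9*, 0.63 for *UTP18*, 0.37 for *RRP12*, 0.37 for *EMG1*, 0.34 for *TBL3*, 0.31 for *WDR75*, 0.13 for *NOB1*, 0.11 for *IMP3* and 0.03 for *BMS1*.

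*RRP9*, the protein specific to the U3 snoRNP (chromosome 3, 51933429 to 51941904, minus strand), had the largest difference of this class. It stood at 4.55, 4.15 and 5.63 FPKM in WT and at 9.93, 6.86 and 18.5 FPKM in KO, a ratio of means of 2.46 and a log2 fold change of 1.11 (SE 0.33). *NOL6*, a processome component, had 5.74, 6.67 and 7.19 FPKM in WT and 13.3, 10.3 and 21.2 FPKM in KO (1.07, SE 0.26). *BYSL*, which encodes the 40S maturation factor bystin, had 8.09, 7.68 and 9.61 FPKM in WT and 16.3, 13.2 and 27.4 FPKM in KO (1.06, SE 0.26). None of these genes overlapped between the genotypes.

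The subcomplexes that bind the precursor first, UTP-A and UTP-B, each held genes of large and of moderate difference. In UTP-A, *WDR43* had 26.0, 28.5 and 30.5 FPKM in WT and 52.0, 43.4 and 85.2 FPKM in KO (1.02, SE 0.24), and its partners *UTP4*, *HEATR1*, *UTP15* and *WDR75* had log2 fold changes of 0.99, 0.70, 0.63 and 0.54. In UTP-B, *UTP18* had 24.3, 28.6 and 24.8 FPKM in WT and 45.7, 35.6 and 87.3 FPKM in KO (1.002, SE 0.31), and *WDR3*, *PWP2* and *TBL3* had log2 fold changes of 0.87, 0.59 and 0.53. Every gene named in these subcomplexes was without overlap between the genotypes.

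*PWP2* was the least abundant member of the class, at 0.833, 0.723 and 0.837 FPKM in WT and 1.28, 1.51 and 1.58 FPKM in KO. Of the 31-base words of its main transcript 94.7% also occur in a near-identical gene model on chromosome 21 (5130871 to 5154658, minus strand), which has the biotype artifact in GENCODE 44 and stood at 11.3, 11.1 and 13.9 FPKM in WT and 21.7, 17.1 and 36.4 FPKM in KO. The sum of the pair was 12.2, 11.8 and 14.7 FPKM in WT and 23.02, 18.6 and 37.97 FPKM in KO, and the log2 fold change of the sum was 0.96 in place of 0.59. The value of *PWP2* alone is therefore uncertain.

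At the lower end of the class, *BMS1*, a GTPase of the processome, had 10.98, 11.1 and 9.99 FPKM in WT and 9.05, 13.2 and 14.4 FPKM in KO (0.16, SE 0.19). Its lowest value was in KO 1, and the groups overlapped. *MPHOSPH10*, which anchors the pair IMP3 and IMP4 to the U3 snoRNP, had 30.4, 21.9 and 31.6 FPKM in WT and 30.7, 35.4 and 36.3 FPKM in KO (0.30, SE 0.17), also with overlap. Of this trio, *IMP4* had a log2 fold change of 0.71 without overlap and *IMP3* one of 0.32 with overlap. The ratio of *IMP4* to *IMP3* was 0.982, 0.763 and 0.812 in WT and 1.14, 1.06 and 1.14 in KO, without overlap. *IMP4*, the gene of the trio with the largest difference, was again set on top, so a higher ratio in KO follows in part from that choice. Against *MPHOSPH10* the ratio of *IMP4* was 1.05, 1.47 and 0.972 in WT and 1.59, 1.13 and 1.97 in KO, with overlap. *NOB1*, the endonuclease that makes the final cut at the end of the 18S RNA and the most abundant gene of the class in WT, had 71.4, 78.4 and 70.1 FPKM in WT and 80.8, 79.8 and 120 FPKM in KO (0.33, SE 0.18). KO 1 and KO 2 exceeded the highest WT line by little.

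The other small-subunit genes lay between these values. Their log2 fold changes were 0.996 for *TSR1*, 0.97 for *UTP20*, 0.74 for *RRP12*, 0.73 for the RNA acetyltransferase gene *NAT10*, 0.73 for *NOP14*, 0.67 for *LTV1*, 0.55 for the methyltransferase gene *EMG1*, 0.55 for *UTP14A*, 0.52 for *DCAF13* and 0.49 for the helicase gene *DDX10*. The late factors of the pre-40S particle in this list (*BYSL*, *TSR1*, *LTV1*, *NOB1*) thus spanned 0.33 to 1.06. *EMG1* shares 72.7% and *IMP3* 50.1% of the 31-base words of their main transcripts with other gene models, which makes their levels uncertain.

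All 19 large-subunit genes were higher in every KO line than in any WT line (18.3% of all tested genes), with a median log2 fold change of 0.81 (0.09 over all tested genes) and a range from 0.49 to 1.63. Without KO 3 their median was 0.59. The values that KO 3 moved by more than 1.5 times were then 0.59 for *MRTO4*, 0.40 for *DDX56*, 0.40 for *NIP7*, 0.37 for *DDX18* and 0.26 for *GTPBP4*.

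*BOP1*, the scaffold of the PeBoW complex needed to process the large-subunit precursor, showed the largest difference of all 58 genes. It stood at 14.5, 12.99 and 19.1 FPKM in WT and at 42.8, 31.8 and 83.2 FPKM in KO. The means of 15.5 ± 3.22 and 52.6 ± 27.0 FPKM (SD, n = 3 each) gave a ratio of 3.39, and the log2 fold change was 1.63 (SE 0.34), or 1.24 without KO 3. Even the lowest KO line, KO 2, was 2.05 times the WT mean.

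The partners of BOP1 in this complex differed less. *PES1* had 45.7, 42.3 and 45.9 FPKM in WT and 67.1, 59.9 and 84.4 FPKM in KO (0.64, SE 0.16), and *WDR12* had 15.4, 14.97 and 20 FPKM in WT and 24.4, 23.9 and 38.2 FPKM in KO (0.74, SE 0.22). The ratio of *BOP1* to *PES1* was 0.316, 0.307 and 0.417 in WT and 0.639, 0.531 and 0.986 in KO, without overlap. Against *WDR12* the ratio of *BOP1* was 0.940, 0.868 and 0.957 in WT and 1.75, 1.33 and 2.18 in KO, again without overlap. The ratio of *PES1* to *WDR12*, by contrast, overlapped, at 2.30 to 2.98 in WT and 2.21 to 2.75 in KO.

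**Figure D5:**
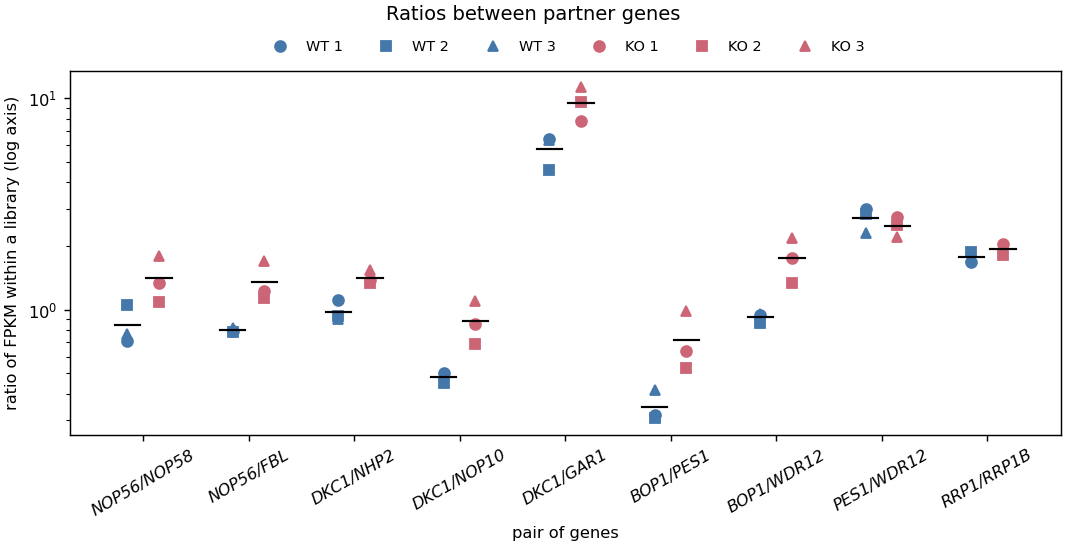
Ratio of FPKM between genes of the same complex or family, taken within each library (vertical log axis), in the WT lines (blue) and KO lines (red), with a bar at the mean of 3 lines. The ratios with *NOP56*, *DKC1* or *BOP1* on top, each the gene with the largest difference of its complex, are higher in all KO lines. *PES1* to *WDR12* and *RRP1* to *RRP1B* overlap.

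*URB2*, an early large-subunit factor (chromosome 1, 229626247 to 229660200, plus strand) and the least abundant gene of the class, had 3.17, 3.15 and 3.60 FPKM in WT and 7.75, 6.30 and 16.9 FPKM in KO. The ratio of its means was 3.12 and its log2 fold change 1.39 (SE 0.34). *RRS1*, which helps to install the 5S RNA particle, had 8.12, 7.63 and 9.28 FPKM in WT and 16.0, 13.4 and 31.6 FPKM in KO (1.14, SE 0.30). *URB2* and *RRS1* differed most in KO 3, at 5.12 and 3.79 times their WT means.

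*RRP1*, a pre-60S processing factor on chromosome 21, had 9.50, 7.86 and 13.7 FPKM in WT and 20.02, 17.9 and 30.6 FPKM in KO (1.10, SE 0.26, or 0.59 with chromosome medians removed). Its paralogue *RRP1B* had a log2 fold change of 0.96 (0.44 with chromosome medians removed), and the ratio of the pair overlapped between the genotypes (1.68 to 1.88 in WT, 1.81 to 2.04 in KO). *NOP2*, the cytosine methyltransferase of the 28S RNA, had 35.9, 29.98 and 39.01 FPKM in WT and 59.0, 58.3 and 105 FPKM in KO (1.03, SE 0.25). Of its 31-base words 96.2% also occur in another gene model, so that its reads cannot be placed with certainty.

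*EBNA1BP2*, a nucleolar partner of pre-60S assembly and the most abundant gene of the class in WT, had 105, 87.6 and 129.5 FPKM in WT and 158, 152 and 253 FPKM in KO (0.78, SE 0.24). The smallest differences were those of *DDX18*, a DEAD-box helicase, at 37.9, 35.6 and 42.7 FPKM in WT and 53.2, 47.3 and 75.7 FPKM in KO (0.57, SE 0.19), and of *GTPBP4*, a GTPase of the pre-60S particle, at 32.0, 32.7 and 33.0 FPKM in WT and 39.4, 39.0 and 63.3 FPKM in KO (0.49, SE 0.20). In *GTPBP4* the WT lines lay within 1 FPKM of each other, and KO 1 and KO 2 were 1.21 and 1.198 times their mean. The GTPase genes *GNL3* (nucleostemin) and *GNL2* had log2 fold changes of 1.02 and 0.65. The remaining values were 1.03 for *MRTO4*, 0.97 for *NOP16*, 0.81 for *PPAN*, 0.80 for *WDR74*, 0.66 for *DDX56* and 0.63 for *NIP7*, where *PPAN* shares 62.9% of its words with other gene models.

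The 5 general nucleolar genes had a median log2 fold change of 0.78, and *NPM1* and *NCL* were the most abundant genes of the whole set in WT. *NCL*, which encodes nucleolin, had 292, 209.6 and 367 FPKM in WT and 412, 437 and 638 FPKM in KO (0.78, SE 0.26), without overlap. *NPM1*, which encodes nucleophosmin, had 284, 315 and 411.5 FPKM in WT and 507, 392 and 877 FPKM in KO (0.75, SE 0.30), and KO 2 lay below WT 3. *NPM1* shares 74% of its 31-base words with other gene models, its many processed pseudogenes among them.

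*NOLC1*, a chaperone of snoRNPs, had 44.6, 38.7 and 44.5 FPKM in WT and 64.2, 70.1 and 133 FPKM in KO (0.98, SE 0.27). *NPM3*, a small relative of nucleophosmin, had 12.5, 17.4 and 15.7 FPKM in WT and 20.7, 21.3 and 58.6 FPKM in KO (0.95, SE 0.39). Its ratio to *NPM1* overlapped between the genotypes, at 0.0383 to 0.0551 in WT and 0.0407 to 0.0668 in KO. *DDX21*, a helicase that links RNA polymerase I transcription to processing, had 27.3, 25.9 and 26.9 FPKM in WT and 34.0, 35.9 and 73.2 FPKM in KO (0.74, SE 0.28). In all of these, unlike most of the set, KO 2 exceeded KO 1, and KO 3 stood far above both. Without KO 3 the log2 fold changes of *NOLC1*, *NPM3*, *DDX21* and *NPM1* were 0.65, 0.47, 0.38 and 0.42.

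*NOLC1*, *NPM3* and *DDX21* lie on chromosome 10 with *BMS1*, *GTPBP4* and *RRP12*, and the level of this chromosome differed between the lines. Over its 463 tested genes, the median distance from the mean of the WT lines (log2 scale, relative to the median of each library) was 0.02, 0.14 and -0.16 in WT 1 to WT 3 and -0.43, -0.16 and -0.19 in KO 1 to KO 3. The 6 genes of the set on this chromosome had medians of 0.22, 0.37 and 1.31 in KO 1 to KO 3 on the same scale, and the other 52 had 0.47, 0.42 and 1.03. After each library was centred on its chromosome medians, the log2 fold changes of *NOLC1*, *DDX21* and *BMS1* were 1.19, 0.95 and 0.38. The part of the chromosome in their values was not tested beyond this. *FGFR2*, the gene knocked out in the KO lines, also lies on chromosome 10 (121478332 to 121598458), and a link between the knockout and the level of the chromosome was not tested.

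*RRP1*, *RRP1B* and *PWP2* lie on chromosome 21, whose level also differed between the lines but in the other direction. On the same scale its 121 tested genes had medians of -0.05, -0.20 and 0.27 in WT 1 to WT 3 and of 0.31, 0.29 and 0.32 in KO 1 to KO 3, and these genes of the set had 0.03, -0.37 and 0.40 in WT and 0.63, 0.69 and 1.24 in KO. Centred on chromosome medians, *RRP1* stood at 0.59 in place of 1.10, *RRP1B* at 0.44 in place of 0.96 and *PWP2* at 0.07 in place of 0.59. Values on other chromosomes that the centring made smaller by more than 1.5 times were 0.42 for *PES1*, 0.33 for *TBL3*, 0.33 for *DCAF13*, 0.20 for *IMP3*, 0.14 for *MPHOSPH10*, 0.12 for *NOB1* and 0.11 for *NOP10*. *BMS1* was the only gene of the 58 that it made larger by that much.

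A list of 88 other ribosome biogenesis factors was written from knowledge of the pathway, with earlier results of these data known, and its values are likewise a description. Of these 86 were higher in KO (60.6% of all tested genes), with a median log2 fold change of 0.50 (0.09 over all tested genes), and in 58 (65.9%) all KO lines lay above all WT lines (18.3% of all tested genes). At an unadjusted p of 0.05 and a log2 fold change of 0.5 or more, 41 were higher (46.6%, against 10.2% of all tested genes), none was lower and none passed the adjusted test. *LYAR*, a nucleolar zinc-finger protein gene, had the largest difference, at 7.70, 5.66 and 10.0 FPKM in WT and 15.2, 14.8 and 27.4 FPKM in KO (1.22), followed by *CCDC86* (1.17) and *PNO1* (1.005), a partner of NOB1. The lowest were *NOP53* (-0.47), *NSA2* (-0.01) and *KRR1* (0.10). *NOP53*, a factor of late large-subunit maturation, stood at 117.5, 169 and 120.2 FPKM in WT and at 109, 98.8 and 82.9 FPKM in KO. It was the only one of the 88 in which every KO line lay below every WT line (706 of all 12241 tested genes).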

How the data were processed

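The authors trimmed paired reads with fastp (version 0.20.0), assigned them to transcripts of GENCODE 37 (GRCh38) with kallisto (version 0.46.1, per the submitters' processing notes) and deposited one FPKM value per gene and library. FPKM is scaled to each library's total, so a library whose total holds less mitochondrial RNA has higher values for its other genes. Counts were not given, and whole reads could not be recovered: 72.5% of 4382 low values came out whole within 0.05 of a read (10% by chance). Precision is thus known only from the spread between lines.

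Here 18 duplicate rows with identical values were dropped, and gene symbols and coordinates were taken from GENCODE 44 by gene ID. The 58 genes and the other lists were chosen with earlier results of these data known. The 12241 genes whose mean reached 0.5 FPKM were compared as log2(FPKM + 0.5) with limma (version 3.58.1, mean-variance trend, Benjamini-Hochberg adjustment, R 4.3.3), called at an adjusted p up to 0.05 with a log2 fold change of 0.5 or more in either direction, over all 6 libraries and without covariates. SE is that of the fit. All 58 genes passed the minimum. The method was tested on 5 simulated data sets, in which 200 of 12218 genes were changed by a log2 of 1.5 in either direction. On average 71.1% of the changed genes were called, with 6.2 false calls. The simulated noise was independent between genes and held no shifts of whole libraries or chromosomes, so these figures do not carry over to the real libraries. Genes named with a value in every library were all snoRNP and general nucleolar genes, the 5 highest and 2 lowest log2 fold changes, the highest and lowest WT means of the small- and large-subunit classes, and the PeBoW subunits. The 3 highest and 3 lowest of the other factors were named too. Words of 31 bases of each MANE Select transcript were compared, on either strand, with all other genes' transcripts. The alternatives were other pseudocounts, low-value minimums, scalings, library weights, a replicate block, removal of chromosome medians and leaving out each library. The sum of *PWP2* and its copy and the median without genes that share over 50% of their words were chosen after seeing the data.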

Additional observations from a re-analysis of the deposited data

How the results depend on the processing

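Of the values recomputed under other settings, 155 kept their direction and their side of the threshold, with counts of genes within 1.5 times and medians within 1 SD between lines of the value given, among them the medians of the 58 genes (0.62 with quantile normalization to 0.78 with TPM scaling) and of each class under every scaling and pseudocount. Among these 155 are log2 fold changes that could not differ, namely those with a replicate block, without the mean-variance trend or without a low-value minimum. The count of the 58 genes without overlap could not differ in these settings or with library weights either, since the same values were compared. All 58 genes were higher in KO in each setting, except that library weights left 57, and that a minimum of 2 FPKM left 57 tested, all of them higher. The count of genes higher in KO at an unadjusted p, 1251 as given, was 803 after quantile normalization, 817 after median-of-ratios scaling and 744 after removal of chromosome medians, and 539 to 1752 with 1 library left out (539 without KO 3, 767 without WT 1). The share of higher among all genes at this p was 81.4% as given and 61.5, 62.6 and 60.4% in these settings (69.9% with nuclear sum scaling), where the median of all genes stood at -0.01, 0.00 and -0.02 in place of 0.09. With library weights, in which WT 1 carried a weight of 10.26 and KO 3 one of 0.37, 1396 genes were called, and *FGFR2* passed at -2.66. In the other fits no gene was called. With 1 library left out, the median log2 fold change spanned 0.52 to 0.89 for the 58 genes, 0.49 to 0.81 for the snoRNP proteins, 0.48 to 0.81 for the small-subunit, 0.59 to 0.98 for the large-subunit and 0.35 to 0.59 for the other factors. *FGFR2* spanned -3.05 to -2.36. The count of genes without overlap spanned 50 to 54, but it cannot fall when a library is left out, and it was 47 with median-of-ratios scaling or chromosome medians removed. Of all tested genes, 18.3% were without overlap in this direction over all 6 libraries and 19.7% without KO 3. The share of all tested genes is not given for the other settings, so nothing is read from these counts. *PWP2* summed with its copy gave 0.96, and without the 7 genes that share over 50% of their words the median was 0.74.

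The labels give both groups the same replicate numbers, but nothing in them ties same-numbered lines, and these did not deviate together (r = -0.21, 0.22 and 0.05 across genes). With the replicate number as a block the pairing left 0 genes called. The median of the 58 genes, 0.74, could not differ in that setting, since each replicate number holds a library of each genotype. The tables hold FPKM without counts, so counting error at low genes such as *PWP2* and *URB2* is not known.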
